A study of Mus musculus with 6 samples.

Results

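The cell cycle and DNA replication genes described here are a list of 33 gene symbols, and their members were the entries of the 6 expression tables whose gene name is one of these symbols. Entries were found for 32 of the 33 names, among 21572 symbols in all. Foxm1, a transcription factor of mitotic genes, was listed only in an entry joined with its neighbour 4933413G19Rik, so it was not counted as a member. Of the 32 members, 22 passed the filter on low values (a mean of at least 0.5 FPKM over the 6 libraries, where FPKM is fragments scaled by transcript length and library) and entered the main test. The other 10 were Cdc6 and the mitotic genes Mki67, Cdk1, Ccnb1, Aurkb, Bub1, Bub1b, Plk1, Cdc20 and Kif11. A gene can pass such a filter through the group in which it is high, so counts over the 22 are given as an account and not as support.

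The tables hold polyadenylated RNA of the soleus, a slow-fibre muscle of the lower leg, from adult mice labelled as strain C57BL/6. There were 3 groups of 2 libraries each: innervated muscle of wild-type (WT) mice, WT muscle denervated for 3 days, and muscle denervated for 3 days from mice of genotype Dach2-/-/Hdac9-/-. The study set these groups side by side to find genes that depend on Dach2, a transcriptional co-factor, and Hdac9, a histone deacetylase. Innervated muscle of the double knockout genotype was not analysed here, so the genotype can be compared only in denervated muscle. Dach2 measured 3.85 and 4.29 FPKM in innervated muscle, 0.519 and 0.536 after denervation in WT, and 0.961 and 0.681 in the knockout libraries. Hdac9 measured 4.10 and 3.14, 1.83 and 0.285, and 0.534 and 0.181 FPKM in the same order. Both genes already measured lower in FPKM after denervation of WT muscle, and values over a whole gene do not show a deleted part, so they check nothing and the libraries are called DKO-labelled. Nothing in the labels says that the libraries of a group came from separate animals, and p-values then measure only the spread between libraries, which may be technical. Totals ran from 25529434 to 46305449 fragments. The sample numbers form 2 consecutive runs with 1 library of each group in each, and library 1 and library 2 below are those of the first and the second run. Slow muscle markers were abundant in every library, with a summed level of 30164 and 39265 FPKM in innervated muscle, 13559 and 12125 after denervation in WT, and 9145 and 11463 in the DKO-labelled libraries.

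A cell that enters division first raises D-type cyclins and cyclin E in G1 phase, which free E2F transcription factors from the retinoblastoma protein. In late G1, Cdc6 and Cdt1 load the ring-shaped MCM helicase onto replication origins, and geminin blocks Cdt1 once S phase has begun. Ribonucleotide reductase and thymidylate synthase then supply the DNA building blocks, and the mitotic kinases, cyclins and motor proteins separate the copied chromosomes. Fibre nuclei of adult muscle have left the cell cycle, and the dividing cells of a muscle are its satellite cells and the connective tissue, vessel, nerve sheath and blood cells around its fibres. Bulk RNA does not tell which cells a transcript came from, and fewer cells of a type and less RNA per cell cannot be told apart.

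Promoters of these genes are known for a few short motifs, and 5 are shown as examples. They are 3 of the 5 members called higher after denervation in WT (Rrm2, Mcm5 and Mcm6) and 2 mitotic genes that differed between libraries (Cdk1 and Top2a). Each is the stretch of 250 bases before the start of the gene in RefSeq (build GRCm38.p6), written 5′ to 3′ along the gene's strand. Capitals mark matches, on either strand, to the E2F core TTNNCGC, to the CCAAT box, and to TTTGAA, the cell cycle homology region of mitotic promoters. Matches that overlap form 1 run of capitals. Rrm2 lies at chr12:24708004-24708253 on the plus strand, Mcm5 at chr8:75109259-75109508 on the plus strand, and Mcm6 at chr1:128359706-128359955, Cdk1 at chr10:69352913-69353162 and Top2a at chr11:99024190-99024439 on the minus strand.
Rrm2: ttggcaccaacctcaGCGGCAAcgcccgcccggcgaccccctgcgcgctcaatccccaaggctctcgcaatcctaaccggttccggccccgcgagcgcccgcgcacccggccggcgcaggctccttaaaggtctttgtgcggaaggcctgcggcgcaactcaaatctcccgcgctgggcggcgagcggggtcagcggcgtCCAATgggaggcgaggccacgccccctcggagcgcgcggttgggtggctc
Mcm5: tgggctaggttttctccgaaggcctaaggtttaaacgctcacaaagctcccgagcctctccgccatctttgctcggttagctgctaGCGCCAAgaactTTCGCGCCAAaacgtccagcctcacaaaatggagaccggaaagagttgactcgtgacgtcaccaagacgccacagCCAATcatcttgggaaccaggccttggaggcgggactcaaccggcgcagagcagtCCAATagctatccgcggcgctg
Mcm6: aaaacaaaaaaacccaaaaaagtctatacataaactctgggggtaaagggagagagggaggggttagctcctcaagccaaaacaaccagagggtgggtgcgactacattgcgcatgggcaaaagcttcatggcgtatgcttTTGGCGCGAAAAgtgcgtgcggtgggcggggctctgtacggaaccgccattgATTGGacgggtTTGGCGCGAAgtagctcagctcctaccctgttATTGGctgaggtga
Cdk1: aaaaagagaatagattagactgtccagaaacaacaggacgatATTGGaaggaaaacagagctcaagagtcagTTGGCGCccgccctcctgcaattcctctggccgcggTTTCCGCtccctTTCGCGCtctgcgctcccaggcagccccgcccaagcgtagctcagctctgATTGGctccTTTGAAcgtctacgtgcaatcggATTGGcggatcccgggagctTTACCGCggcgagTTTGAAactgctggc
Top2a: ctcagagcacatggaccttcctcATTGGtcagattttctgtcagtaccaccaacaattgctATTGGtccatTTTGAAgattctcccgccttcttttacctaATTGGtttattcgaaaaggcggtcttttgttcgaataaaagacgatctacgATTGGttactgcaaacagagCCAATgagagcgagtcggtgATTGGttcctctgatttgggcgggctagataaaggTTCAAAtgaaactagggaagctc

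The shown Mcm6 stretch holds 5 matches to the E2F core and the Mcm5 stretch 3, whereas neither holds TTTGAA. The Top2a and Cdk1 stretches each hold TTTGAA 2 times, and Cdk1 also holds 4 matches to the E2F core. Rrm2 has 1 match to the E2F core and 1 CCAAT box. Cdt1 and Aurka, also called higher after denervation in WT, are not shown. The same stretch of Cdt1 holds no match to any of these motifs, and that of Aurka holds 2 CCAAT boxes only. Whether matches go with the rise was not tested. Over the RefSeq windows of 300 bases, which run on past the start, 27 of the 33 symbols had an entry with 29 promoters. TTTGAA was found in 9 of 12 mitotic promoters and in 1 of 9 of the replication group (Mcm2), against 17.9% of all 32851 promoters. The E2F core was found in 8 of 9 promoters of the replication group, in 4 of 4 of the nucleotide group and in 5 of 12 mitotic ones, against 20.2% of all promoters. The CCAAT box was found in 11 of 12 mitotic promoters and 7 of 9 of the replication group, against 37.4% of all. Of the 4 promoters of the G1 group, 0 held TTTGAA, 0 the E2F core and 1 the CCAAT box. Of the 4 of the nucleotide group, 0 held TTTGAA and 2 the CCAAT box. The G1 counts were the same in the 250 bases before the start alone, as were these 2 of the nucleotide group. In the 250 bases before the start alone, the E2F core was found in 5 of 9 promoters of the replication group, 3 of 4 of the nucleotide group and 4 of 12 mitotic ones (all promoters 17.0%), TTTGAA in 6 of 12 mitotic ones (all 16.0%) and CCAAT in 11 of 12 (all 33.8%). A match is a description of the letters and shows no binding. No promoter entry was matched for Ccnd1, Ccnd2, Ccna2, Aurkb, Foxm1 and Mcm4.

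After 3 days of denervation WT soleus had much more Rrm2 RNA, and more Cdt1, Mcm5, Mcm6 and Aurka RNA, than innervated WT soleus, and less Ccnd2. These 6 were the members called at an adjusted p under 0.05 by edgeR's quasi-likelihood test with Benjamini-Hochberg adjustment over 12247 genes. That is 5 of 22 higher and 1 of 22 lower, where the same comparison called 14.4% of all tested genes higher and 14.3% lower. The members' median log2 fold change was 0.87 against 0 over all tested genes, and it was 0.94 over all 32 members in a fit of genes with a mean of at least 10 fragments. Counting normalised fragments (fragments over the scaled library size), both denervated libraries lay above both innervated ones for 11 of the 22 tested members, against 35.1% of all tested genes. Over all 32 members, 10 of them under the filter, this held for 14, and no share over a matching set was taken. Both denervated libraries lay below both innervated ones for 2 tested members, Ccnd2 and Ccnd3, against 35.5% of all tested genes. The groups overlapped for 9 of the 22 and for 16 of all 32. With innervated library 1 left out, and likewise with innervated library 2 left out, Rrm2 was the only member called; with 1 library left in a group, that library is assumed to vary like those of the other groups. Without denervated WT library 1 the higher members were Rrm2, Cdt1 and Mcm6 and the lower ones Ccnd2, Ccnd3 and Tk1, and without library 2 there were 11 higher. Leaving out an innervated library also cut the calls over all genes, so that loss is not particular to the members. By role, in the count of libraries: 7 of 9 replication genes lay above (7 of the 8 tested), and 4 of 14 mitotic genes (1 of the 5 tested). The heat map of all members shows the same by library.

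**Figure D1:**
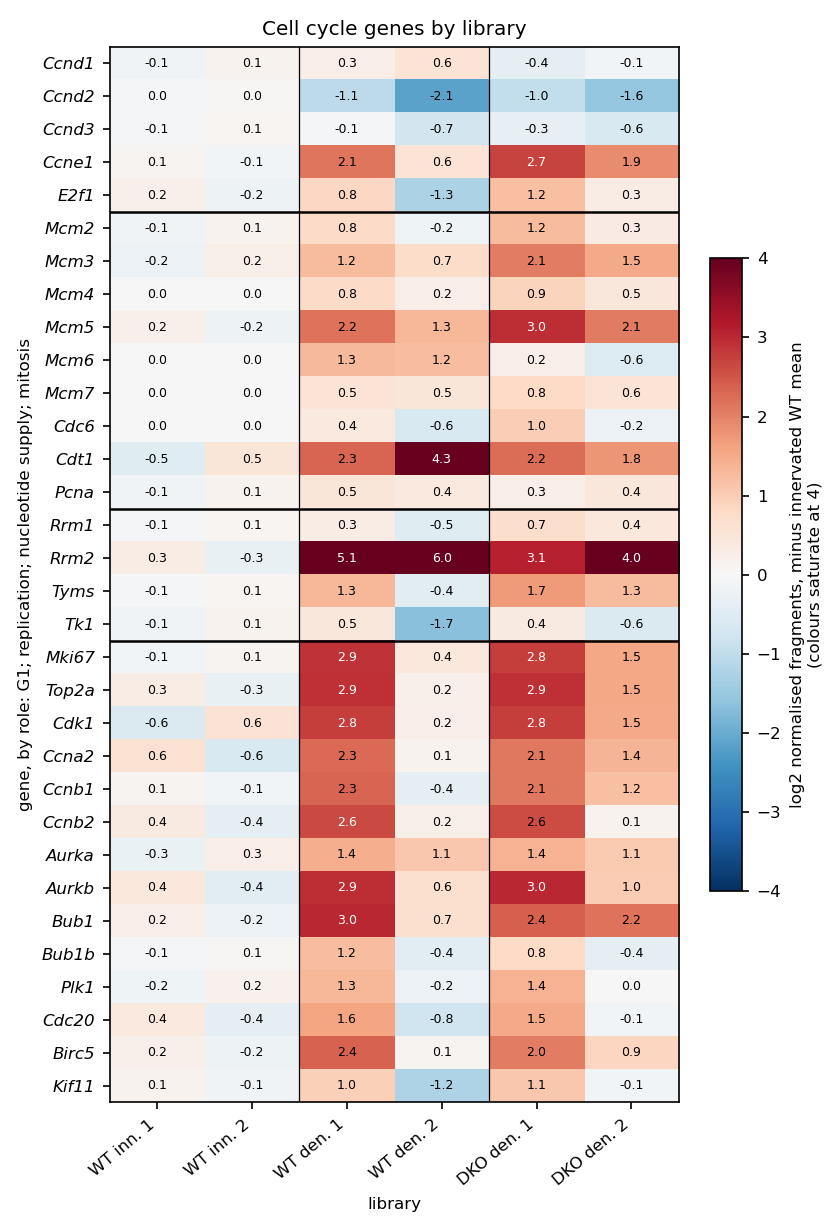
Each cell is the log2 level of normalised fragments (with 0.5 fragments added) of 1 member in 1 library, minus the mean of the innervated WT libraries, with genes in rows by role and libraries in columns. The replication genes other than Mcm2 and Cdc6 lie above the innervated mean in both denervated WT libraries, whereas the mitotic genes lie above it in library 1 and from -1.22 (Kif11) to 1.07 (Aurka) in library 2.

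Among the G1 genes the D-type cyclins, which pair with Cdk4 and Cdk6, did not move together. Ccnd2 (chromosome 6, 127075726 to 127101066 on mm9, the build of the files) measured 3.07 and 3.28 FPKM in innervated muscle, 1.5 and 0.688 after denervation in WT, and 1.6 and 1.06 in the DKO-labelled libraries. Every denervated library was thus below both innervated ones. Its fall in denervated WT was 2.81-fold (log2 -1.49 ± 0.39, SE, adjusted p = 0.0327, edgeR). Without innervated library 1, without innervated library 2 and with library totals only this call was lost, with adjusted p-values up to 0.152 over the alternatives. Ccnd1 measured 4.54 and 5.61 FPKM in innervated muscle, 5.97 and 7.10 after denervation in WT, and 3.77 and 4.54 in the DKO-labelled libraries, and neither change from the innervated level was called with all 6 libraries. Ccnd3, which shares its place with Bysl in the files, measured 9.60 and 10.9, then 9.13 and 5.73, then 7.36 and 6.06 FPKM, and no change was called with all 6 libraries. The ratio of Ccnd1 to Ccnd2 in FPKM was 1.48 and 1.71 in innervated muscle, 3.99 and 10.3 after denervation in WT, and 2.36 and 4.30 in the DKO-labelled libraries. The 3 D-type cyclins together came to 17.2 and 19.8, 16.6 and 13.5, and 12.7 and 11.7 FPKM, so their summed level was lower in every denervated library.

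Ccne1, the cyclin E gene that acts with Cdk2 at the entry into S phase, was low throughout. It measured 0.232 and 0.199 FPKM in innervated muscle, 0.947 and 0.305 after denervation in WT, and 1.38 and 0.774 in the DKO-labelled libraries. All 4 denervated libraries were above both innervated ones. The rise passed the test in DKO-labelled muscle (log2 2.38 ± 0.64, adjusted p = 0.0331, edgeR) and not in denervated WT (log2 1.61 ± 0.64, adjusted p = 0.10, edgeR). The call in DKO-labelled muscle was made in 12 of 17 alternatives and lost in the others. E2f1, an activating E2F factor, measured 0.575 and 0.443, 0.859 and 0.196, and 1.07 and 0.565 FPKM, with denervated WT on both sides of the innervated level.

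Of the genes for proteins that load and form the replication helicase, Cdt1 and Mcm6 had their highest mean FPKM in denervated WT. Mcm2, Mcm3, Mcm4, Mcm5, Mcm7 and Cdc6 had theirs in DKO-labelled muscle. None of these differences between the denervated groups was called by edgeR. Cdt1 (chromosome 8, 125091914 to 125097030) measured 0.222 and 0.433 FPKM in innervated muscle, 1.5 and 5.98 after denervation in WT, and 1.35 and 0.953 in the DKO-labelled libraries. Its rise in denervated WT was 12.3-fold (log2 3.62 ± 0.75, adjusted p = 0.0174, edgeR), with the second denervated WT library well above the first. In DKO-labelled muscle the rise from the innervated level was 3.97-fold and missed the threshold (adjusted p = 0.0812, edgeR). This rise was called in 7 of 17 alternatives, DESeq2 among them. The ratio of Cdt1 to Gmnn, the gene of its inhibitor geminin, was 0.0195 and 0.0403 in innervated muscle, 0.359 and 1.97 after denervation in WT, and 0.308 and 0.334 in the DKO-labelled libraries. Both terms moved: Gmnn measured 11.4 and 10.7, 4.17 and 3.03, and 4.38 and 2.85 FPKM, a fall of 2.99-fold in denervated WT (adjusted p = 0.0127, edgeR).

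Mcm6 (chromosome 1, 130228167 to 130256233), a helicase subunit, measured 2.34 and 2.34 FPKM in innervated muscle, 5.58 and 5.24 after denervation in WT, and 2.70 and 1.54 in the DKO-labelled libraries. Denervated WT stood apart from the other 4 libraries, and DKO-labelled muscle lay on both sides of the innervated level. The rise in denervated WT was 2.41-fold (log2 1.27 ± 0.28, adjusted p = 0.0214, edgeR), and DKO-labelled against innervated WT gave a log2 value of -0.09 ± 0.28 (adjusted p = 0.82, edgeR). Mcm5 (chromosome 8, 77633426 to 77652338), another subunit, measured 0.390 and 0.294, 1.48 and 0.820, and 2.54 and 1.37 FPKM. It rose 3.48-fold in denervated WT (adjusted p = 0.0285, edgeR) and 5.95-fold in DKO-labelled muscle (adjusted p = 0.00931, edgeR). The first of these calls was lost in 5 of 17 alternatives: limma on log2(FPKM + 0.5) and on log2(FPKM + 1), and without denervated WT library 1 or either innervated library. Mcm3 measured 0.928 and 1.28, 2.47 and 1.70, and 4.25 and 2.90 FPKM, so the 3 groups did not overlap. Its rise passed in DKO-labelled muscle (3.49-fold, adjusted p = 0.00951, edgeR) and just missed in denervated WT (2.01-fold, adjusted p = 0.0553, edgeR). Mcm7, whose locus also holds Mir106b, Mir93 and Mir25, measured 3.00 and 3.17, 4.30 and 4.05, and 5.08 and 4.23 FPKM, and rose 1.6-fold in DKO-labelled muscle (adjusted p = 0.0382, edgeR). This Mcm7 call was made in 12 of 18 alternatives and lost in the others, upper-quartile scaling among them.

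The 6 MCM proteins act as 1 ring, but their RNAs did not change in step. The ratio of Mcm6 to the median of the other 5 MCM genes in FPKM was 1.59 and 1.35 in innervated muscle, 2.13 and 3.09 after denervation in WT, and 0.756 and 0.647 in the DKO-labelled libraries. Mcm6 was therefore above that median in all 4 WT libraries and below it in both DKO-labelled ones. Mcm2 (1.48 and 1.81, 2.62 and 1.37, 3.58 and 1.86 FPKM) and Mcm4 (1.78 and 1.74, 2.91 and 2.03, 3.24 and 2.38 FPKM) were not called with all 6 libraries, and Mcm4 was called higher in DKO-labelled against innervated muscle in 5 of 18 alternatives. Pcna, the sliding clamp of DNA polymerases, was the most abundant member in innervated muscle, at 21.1 ± 2.87 FPKM (SD, n = 2), and measured 27.9 ± 1.40 after denervation in WT and 27.1 ± 2.07 in DKO-labelled muscle. Its log2 change was 0.42 ± 0.17 in denervated WT (adjusted p = 0.0974, edgeR). Cdc6, which loads the helicase with Cdt1, stayed between 0.0816 and 0.252 FPKM and came from 17 to 58 fragments a library, and no change was detectable at this depth.

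Rrm2, the small subunit of ribonucleotide reductase that is made in dividing cells, was the member that changed by far the most. Rrm2 (chromosome 12, 25393118 to 25399011) measured 1.36 and 0.920 FPKM in innervated muscle, 38.1 and 70.1 after denervation in WT, and 9.72 and 18.7 in the DKO-labelled libraries, from 58 to 6622 fragments. The 3 groups did not overlap. The rise was 47.9-fold in denervated WT (log2 5.58 ± 0.51, adjusted p = 0.00247, edgeR) and 12.3-fold in DKO-labelled muscle (log2 3.62 ± 0.47, adjusted p = 0.00381, edgeR), against the same innervated libraries. Both calls held in all 18 alternatives tried, with adjusted p-values up to 0.0451 and 0.0491. By mean level Rrm2 was number 11 of the 32 members in innervated muscle, number 1 in denervated WT (54.1 ± 22.6 FPKM) and number 2 after Pcna in DKO-labelled muscle (14.2 ± 6.32 FPKM).

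**Figure D2:**
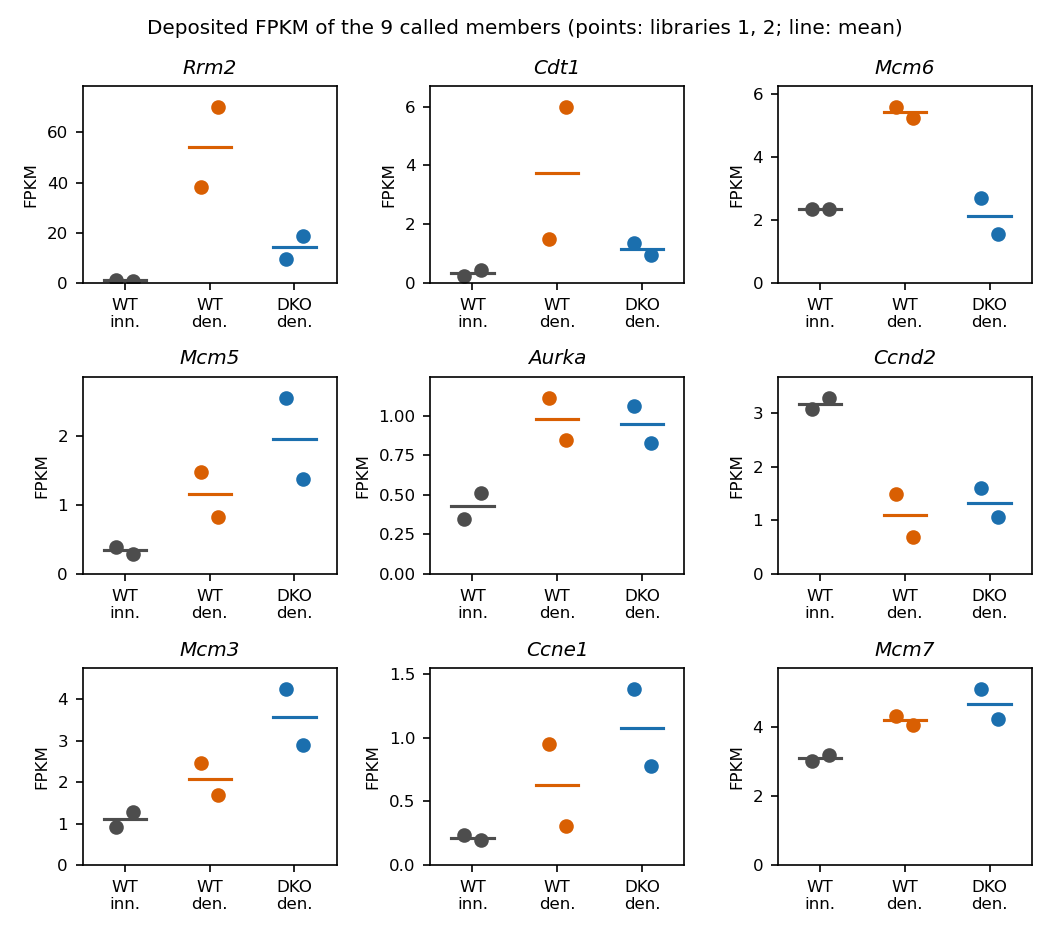
Points are the deposited FPKM of each library, by group, for the members called in at least 1 comparison, and lines are group means, with library 1 left and library 2 right in each pair. Rrm2 reaches 38.1 and 70.1 FPKM in denervated WT with DKO-labelled muscle in between, and Mcm6 is high in denervated WT alone. Mcm3, Mcm5, Mcm7 and Ccne1 have their highest means in DKO-labelled muscle.

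The partners of Rrm2 did not follow it. Rrm1, the large subunit of the same enzyme, measured 5.40 and 6.06 FPKM in innervated muscle, 6.94 and 3.99 after denervation in WT, and 9.40 and 7.71 in the DKO-labelled libraries, and no change was called with all 6 libraries, though 4 of 18 alternatives called it higher in DKO-labelled against innervated muscle. Rrm2b, the alternative small subunit used outside S phase, measured 7.36 and 6.71, 5.95 and 5.56, and 6.6 and 7.36 FPKM (log2 -0.31 ± 0.15 in denervated WT, adjusted p = 0.172, edgeR). The ratio of Rrm2 to Rrm2b was 0.185 and 0.137 in innervated muscle, 6.40 and 12.6 after denervation in WT, and 1.47 and 2.53 in the DKO-labelled libraries. Rrm2 was thus the lesser of the small subunit RNAs in innervated muscle and the greater in all 4 denervated libraries. The ratio of Rrm2 to Rrm1 was 0.252 and 0.152, 5.48 and 17.6, and 1.03 and 2.42. Tyms, thymidylate synthase, measured 0.266 and 0.301, 0.701 and 0.210, and 0.913 and 0.674 FPKM. Tk1, the thymidine kinase of dividing cells, which overlaps Afmid in the files, measured 1.79 and 2.23, 2.59 and 0.584, and 2.38 and 1.23 FPKM. Neither was called with all 6 libraries. Tk1 was called lower in denervated WT without denervated WT library 1 (adjusted p = 0.0436, edgeR). Tyms was called higher in DKO-labelled against innervated muscle in 6 of 17 alternatives, DESeq2 among them, and in denervated WT in 1.

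Most mitotic genes differed between the 2 libraries of each denervated group. Mki67, the Ki-67 proliferation marker, had 52 and 46 fragments in innervated muscle, 720 and 83 after denervation in WT, and 483 and 192 in the DKO-labelled libraries (0.0986 and 0.116, 0.756 and 0.135, and 0.726 and 0.304 FPKM). Top2a, the topoisomerase that untangles sister chromosomes, had 46 and 23, 499 and 48, and 356 and 128 fragments. Cdk1, the kinase that starts mitosis, had 10 and 17, 183 and 20, and 130 and 52 fragments. In each of these, denervated WT library 1 was high and library 2 was near the innervated libraries, with DKO-labelled library 1 high and library 2 in between. Normalised for library size, denervated WT library 1 was at least 2-fold above library 2 for 13 of 14 mitotic members, where 10.7% of 14118 genes with a mean of at least 10 fragments were. The median of the 14 was 5.05-fold (log2 2.34). DKO-labelled library 1 was at least 2-fold above library 2 for 10 of 14 (all genes 6.45%), with a median log2 of 1.21. In innervated WT this held for 1 of 14 (all genes 2.55%), with a median log2 of 0.33. The 9 replication genes gave 0 of 9 in denervated WT, with a median log2 of 0.50. The G1 genes gave 3 of 5 (median log2 1.10) and the nucleotide genes 2 of 4 (median log2 1.26).

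**Figure D3:**
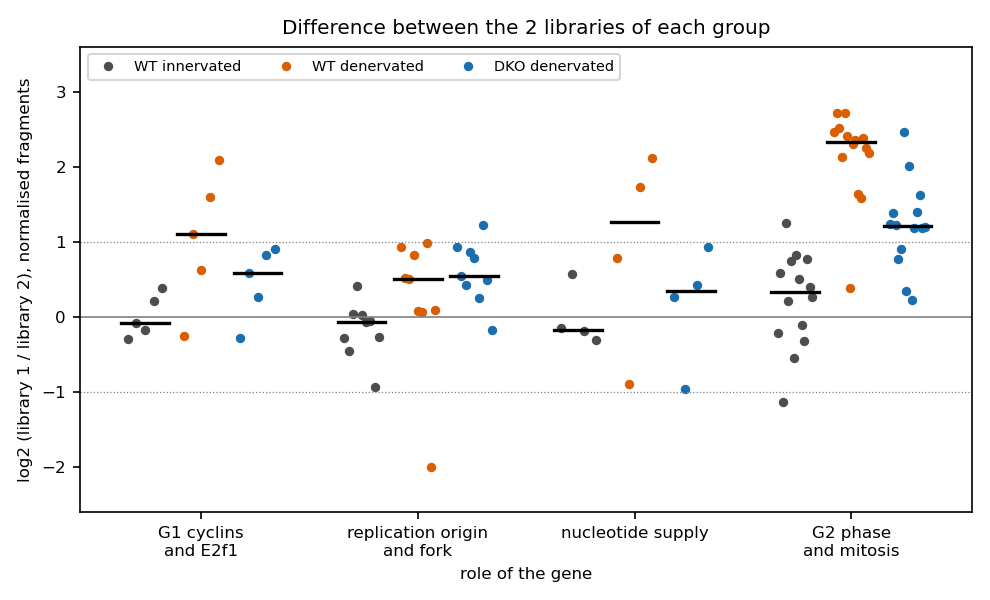
Each point is 1 member, plotted as the log2 ratio of library 1 to library 2 of its group in normalised fragments, by role; black bars are medians and dotted lines mark a 2-fold difference. The mitotic genes of denervated WT lie around a median of 2.34, with Aurka alone near 0, whereas the replication genes of the same libraries lie around 0.50.

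Rrm2 and Cdt1 ran against this split. Denervated WT library 2 had more of both, at 70.1 against 38.1 FPKM for Rrm2 and 5.98 against 1.5 for Cdt1, while the mitotic genes were higher in library 1. Within the first run of sample numbers, denervated minus innervated WT gave a median log2 of 2.20 over the 14 mitotic genes, at least 2-fold for 13 of them. Within the second run the median was 0.31, at least 2-fold for 1 and below 0 for 6. The replication genes gave medians of 0.90 and 0.44, and Rrm2 gave 4.81 and 6.28. For DKO-labelled minus innervated WT the mitotic medians were 1.93 and 1.02.

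Of the 14 mitotic members 5 entered the test of denervated against innervated WT and 1, Aurka, was called, where 14.4% of all tested genes were called higher. With no filter on low values Mki67 and Bub1 were called too, and DESeq2 called Top2a. With all 6 libraries Top2a gave a log2 value of 2.12 ± 0.91 (adjusted p = 0.124, edgeR), Ccnb2, a B-type cyclin of mitosis, 1.89 ± 1.07 (adjusted p = 0.222, edgeR), and Birc5, the survivin gene of the chromosomal passenger complex, 1.67 ± 0.81 (adjusted p = 0.161, edgeR). Ccna2, the cyclin of S and G2 phase, whose locus overlaps Exosc9, gave 1.43 ± 0.77 (adjusted p = 0.197, edgeR). Without denervated WT library 1 the values were 0.16 for Top2a, 0.15 for Ccnb2, 0.09 for Birc5 and -0.04 for Ccna2. Without denervated WT library 2, Top2a, Birc5 and Ccna2 were called, along with 8 other members higher. Aurka, the centrosome kinase, was the exception, with 0.346 and 0.512 FPKM in innervated muscle, 1.11 and 0.846 after denervation in WT, and 1.06 and 0.829 in the DKO-labelled libraries. It was called in denervated WT (2.42-fold, adjusted p = 0.0429, edgeR) and in DKO-labelled muscle (2.34-fold, adjusted p = 0.0449, edgeR), close to the threshold, and 8 of 17 alternatives did not make the first call, including the fits without any 1 library except denervated WT library 2.

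The mitotic genes under the filter were measured at low levels and showed the same division in denervated WT. In denervated WT, with library 1 first, Aurkb (the chromosomal passenger kinase) had 104 and 13 fragments, Bub1 (a spindle checkpoint kinase) 76 and 9, and Ccnb1 (the main mitotic cyclin) 118 and 11. Plk1 (a mitotic kinase) had 100 and 21, Bub1b (a spindle checkpoint protein) 236 and 48, Kif11 (a spindle motor) 201 and 28, and Cdc20 (an activator of the anaphase-promoting complex, overlapping Elovl1 in the files) 93 and 11. Innervated WT had 3 to 65 fragments for these 7 genes. Normalised for library size, denervated WT library 1 lay above library 2 by log2 1.58 (Plk1) to 2.72 (Ccnb1). In the DKO-labelled libraries Bub1 had 35 and 28 fragments, a log2 ratio of only 0.23 in normalised fragments. The rest of the 7 gave log2 0.90 (Ccnb1) to 2.01 (Aurkb) there. The joined entry of Foxm1 had 20 and 11 fragments in innervated muscle, 135 and 20 after denervation in WT, and 101 and 43 in the DKO-labelled libraries. In the fit of genes with at least 10 fragments, which takes in all 32 members, the only mitotic gene called was again Aurka. The largest mitotic value there was that of Bub1 in denervated WT (log2 2.40 ± 0.86, adjusted p = 0.078, edgeR). Summed over the 14 mitotic genes, the level was 3.42 and 2.91 FPKM in innervated muscle, 13.4 and 3.40 after denervation in WT, and 12.5 and 5.54 in the DKO-labelled libraries, against a sum of 29.4 to 49.9 for the 9 replication genes in the 6 libraries.

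Markers of other cells also differed between the denervated WT libraries. Of all 14118 genes with a mean of at least 10 fragments, 1514 were at least 2-fold higher in library 1 there and 448 in library 2. Of 10 fibro-adipogenic progenitor markers (connective tissue cells), 6 were at least 2-fold higher in library 1, and the summed levels were 1618 and 1461 FPKM in innervated muscle, 930 and 653 after denervation in WT, and 723 and 632 in the DKO-labelled libraries. Of 12 macrophage markers 3 were at least 2-fold higher in library 1 (sums 299 and 190, 348 and 265, 348 and 203 FPKM). Neutrophil markers were higher in library 2 for 4 of 5 (sums 5.68 and 13.8, 30.9 and 73.7, 94.1 and 121 FPKM, with Mpo and Elane at 0 in some library). Satellite cell and myoblast markers summed to 2282 and 2025, 2257 and 2111, and 2167 and 1930 FPKM. In denervated WT 2 of 10 were 2-fold higher in library 1 and 3 of 10 in library 2. These sums do not show the change of each gene. Against innervated WT, edgeR called Myod1 and Cdh15 higher and 0 lower among their 9 tested genes, whichever denervated group was compared. The median log2 fold change of the 9 was 0.45 for the WT group and 0.6 for the DKO-labelled one. Endothelial markers (169 and 191, 83.0 and 77.6, 89.5 and 59.5 FPKM) and Schwann cell markers (104 and 106, 52.0 and 51.7, 49.4 and 45.6 FPKM) had no member that differed 2-fold between the denervated WT libraries. Lymphocyte markers stayed at a summed 0.332 to 1.86 FPKM, with Cd3d, Cd3g and Ms4a1 at 0 in some library. In DKO-labelled muscle 6.45% of all genes were at least 2-fold higher in library 1. The same held for 6 of 12 macrophage markers (median log2 1.05) and 3 of 5 neutrophil markers (median log2 1.29). It held for 2 of 10 fibro-adipogenic progenitor markers and 1 of 8 endothelial markers. In innervated WT 3 of 5 neutrophil markers were at least 2-fold higher in library 2 (median log2 -1.37), where 208 of 14118 genes were. In library 1 this held for 2 of 12 macrophage and 1 of 10 fibro-adipogenic progenitor markers (all genes 2.55%). The part of these cells in the mitotic differences was not tested.

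In DKO-labelled muscle, 6 of the 22 tested members rose from the innervated WT level and edgeR called 0 lower, where 15.2% of all tested genes were called higher and 16.2% lower. They were Rrm2, Mcm5, Ccne1, Mcm3, Aurka and Mcm7, with the values given above. Ccnd2 was the 1 lower member at an unadjusted p under 0.05 (log2 -1.23 ± 0.39, adjusted p = 0.053, edgeR), and DESeq2 and limma on log2(FPKM + 0.5) called it. By normalised fragments both DKO-labelled libraries lay above both innervated ones for 16 of the 22 tested members, against 38.3% of all tested genes. Over all 32 members this held for 21, again with no share over a matching set. Of the mitotic genes it held for 9 of 14, and for 4 of the 5 tested. The comparison shares its innervated libraries with the one above and differs from them in genotype and in innervation at once. With 1 innervated library left out, whichever it was, only Rrm2 was called in it, and with 1 DKO-labelled library left out, whichever it was, Rrm2, Mcm5 and Mcm3 were. With 1 denervated WT library left out, whichever it was, more members were called. Calls over all genes fell without an innervated or a DKO-labelled library and rose without a denervated WT one. These changes are therefore not particular to the members.

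Between the denervated groups, edgeR called 0 of the 22 members, and in all only 0.0245% of genes higher and 0.0163% lower in DKO-labelled muscle. At an unadjusted p under 0.05 there were 4 lower members, Rrm2, Mcm6, Cdt1 and Ccnd1, where 3.45% of all tested genes were lower, and 1 higher, Mcm3, where 2.65% were higher. In normalised fragments both DKO-labelled libraries lay below both denervated WT ones for 4 of the 22 tested members, against 14.4% of all tested genes. These were the same 4 lower members, so their separation adds no support. Both lay above both for 3 of 22 (Mcm3, Mcm7 and Rrm1), against 14.2%. Rrm2 was 3.90-fold lower in DKO-labelled muscle (log2 -1.96 ± 0.42, adjusted p = 0.341, edgeR), by -2.00 and -1.94 within the first and second runs of sample numbers. Mcm6 was 2.57-fold lower (log2 -1.36 ± 0.28, adjusted p = 0.332, edgeR), by -1.06 and -1.77 within the runs. DESeq2, run as an alternative, called both lower, with adjusted p-values of 0.000761 for Rrm2 and 0.00253 for Mcm6, where it called 0.825% of all tested genes lower. limma on log2 FPKM called no member. Cdt1 differed by -0.09 within the first run and -2.58 within the second (adjusted p = 0.796, edgeR), so the difference lay in the second run. Ccnd1 differed by -0.66 and -0.65 (adjusted p = 0.589, edgeR), and Mcm3 by 0.80 and 0.79 in the other direction (adjusted p = 0.778, edgeR). The groups overlapped for each of the 14 mitotic genes, and the 5 tested had log2 values between -0.09 and 0.24. These values average unlike runs. Within the first run the 14 differed by -0.63 (Bub1) to 0.12 (Kif11), and within the second by -0.08 (Ccnb2) to 1.59 (Ccnb1).

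**Figure D4:**
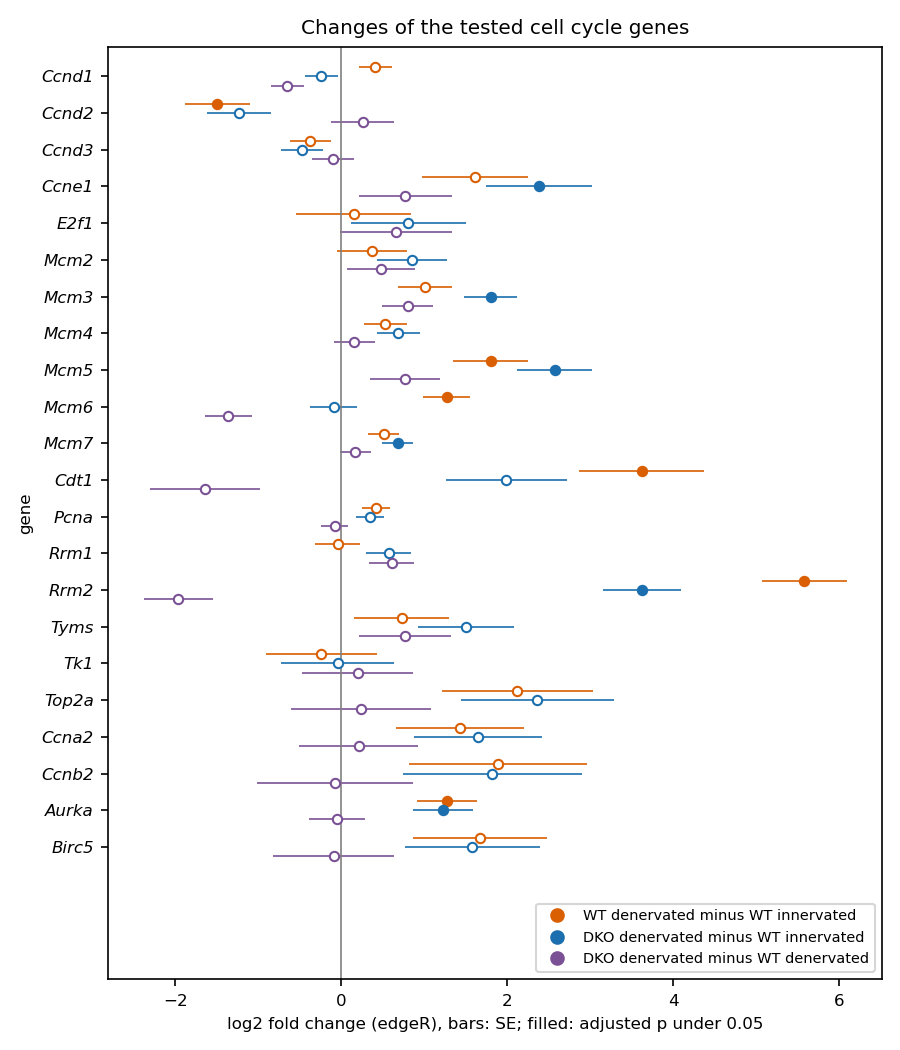
Points are edgeR log2 fold changes of the 22 tested members in the 3 comparisons, with bars of 1 SE, and filled points passed an adjusted p under 0.05. Rrm2, Cdt1 and Mcm6 lie right of 0 for denervated against innervated WT and left of 0 for DKO-labelled against denervated WT, where no point is filled.

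Lists of other genes of the pathway were read in the same fit of denervated against innervated WT, which called 14.4% of all tested genes higher and 14.3% lower. It called 44 of the 132 tested genes of these 7 lists. Of these 44, 5 were still called without innervated library 1 (E2f6, Gadd45a, Impdh1, Impdh2 and Rb1) and 3 without innervated library 2 (E2f6, Impdh1 and Rb1), so the other calls named here, that of Cdkn1a included (adjusted p up to 0.0716, edgeR), rest on having both. Of 6 tested CDK inhibitors, Cdkn1a (p21, which blocks Cdk2 and binds Pcna) rose and Cdkn1c (p57) fell. Cdkn1a measured 12.6 and 13.0 FPKM in innervated muscle, 110 and 324 after denervation in WT, and 98.8 and 182 in the DKO-labelled libraries, a rise of 17.7-fold in denervated WT (adjusted p = 0.00625, edgeR). Cdkn1a was, like Rrm2 and Cdt1, higher in denervated WT library 2. Of 16 tested genes of the retinoblastoma, E2F and DREAM complexes, 6 rose (E2f8, E2f4, Rb1, Rbbp4, Lin37 and Lin54) and 2 fell (E2f6 and Rbl2). Rb1, the retinoblastoma gene that holds E2F factors in check, measured 5.44 and 4.81, 19.4 and 17.2, and 18.6 and 20.9 FPKM, a rise of 3.57-fold (adjusted p = 0.00238, edgeR). Of 14 tested CDKs, other cyclins and proteins that bind CDKs, Cdk2, Cdk7 and the binding proteins Mnat1 and Cks1b rose and Ccng1 fell. Cdk2, the partner of cyclin E, rose 2.06-fold (adjusted p = 0.0092, edgeR), and Cdk4, a partner of the D-type cyclins, gave 1.54-fold (adjusted p = 0.0506, edgeR). Cdk6, the other partner, lay under the filter at 0.172 to 0.380 FPKM.

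Of 38 tested other genes of origins and forks, 8 rose and only Gmnn fell. The first 4 were Pold4 (2.76-fold, a subunit of DNA polymerase delta), Mcm8 (2.65-fold), Rfc5 (2.47-fold) and Rfc3 (2.29-fold), the last 2 being subunits of the loader of Pcna. Of 24 tested other genes of nucleotide supply, 6 rose, led by Dctd (5.56-fold, dCMP deaminase) and Impdh1 (4.03-fold, of guanine nucleotide synthesis), and 2 fell, Adssl1 (4.70-fold) and Adsl (1.48-fold), both of adenine nucleotide synthesis. Of 18 tested other mitotic genes, 6 rose: Ckap2 (12.2-fold), Cdca8 (7.33-fold), Smc2 (3.39-fold), Incenp (2.51-fold), Plk4 and Smc4. Of the 50 other mitotic genes measured, 37 were at least 2-fold higher in denervated WT library 1 than in library 2 (all genes 10.7%), and 1 was in library 2. In DKO-labelled muscle 23 were higher in library 1 (all genes 6.45%) and 0 in library 2. In innervated WT 7 were higher in library 1 (all genes 2.55%) and 2 in library 2. Ckap2 was opposite in denervated WT, with 0.721 FPKM in library 1 and 2.15 in library 2. Of 16 tested growth arrest and p53 target genes, Gadd45a (50.1-fold), Plk2, Bax and Mdm2 rose and Gadd45b and Tob1 fell.

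Against innervated WT, where 15.2% of all tested genes were called higher and 16.2% lower, DKO-labelled muscle gave for the same lists 1 higher and 1 lower of 6 CDK inhibitors (Cdkn1a and Cdkn1c), 6 and 2 of 16 genes of the E2F and DREAM group, and 1 and 1 of 14 CDKs, cyclins and proteins that bind CDKs (Cdk2 and Ccng1). It gave 11 and 1 of 38 origin and fork genes, 6 and 2 of 24 nucleotide genes, 2 and 4 of 16 growth arrest genes, and 7 higher and 0 lower of 18 mitotic genes. Of these 45 calls, 11 were still made without innervated library 1 and 9 without innervated library 2, and 26 and 17 without DKO-labelled library 1 and 2. Uhrf1 (4.14-fold) and Gins2 (4.11-fold), genes of DNA methylation upkeep and of the replicative helicase, were called there and not in denervated WT, where they gave 2.73-fold (adjusted p = 0.0556, edgeR) and 2.70-fold (adjusted p = 0.111, edgeR). The difference between the groups for these 2 genes had adjusted p-values of 0.968 and 0.971. Between the denervated groups edgeR called 0 of the 132 tested genes of these 7 lists, with 3 higher and 6 lower at an unadjusted p under 0.05, where 2.65% and 3.45% of all tested genes were. DESeq2 called 1 lower (Phlda3, a p53 target), and limma on log2(FPKM + 0.5) called 0.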

How the data were processed

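Polyadenylated RNA of 6 mouse soleus libraries was read from 6 deposited tables, 1 per library, with groups as in the sample titles. Cuffdiff 2.0.2 with TopHat2 2.0.3 and Bowtie2 2.0.0.7, besides Trim Galore 0.2.1, CASAVA 1.8.2 and genome build mm9, appear in the submitters' processing notes. Annotation, settings and strand use were not given in the sources used here, so genes that overlap others are uncertain. Per the file headers, the tables hold FPKM made by the authors, a signal of externally scaled fragments, and raw fragments, which are estimated counts. The deposited signal was the raw fragments times 1 factor per library, from 0.6643 to 1.5641, and the deposited estimated counts were whole for 88.4% to 89.0% of entries (within 1e-06). FPKM also carry a library factor, so they compare genes within a library, and changes were taken from the counts. Each table lists every entry 3 times in 65415 lines, which left 21805 entries, and entries of 1 symbol were summed (149 symbols).

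Counts were rounded and tested with edgeR 4.0.16 (R 4.3.3, quasi-likelihood, two-sided, TMM scaling) for genes of mean FPKM of at least 0.5, with all 6 libraries in 1 fit, 3 residual degrees of freedom and a common coefficient of biological variation of 0.222. Adjusted p-values run over all 12247 genes, and the SE is the log2 fold change over the square root of F. The script was tested on simulated data. DESeq2 1.42.0, limma 3.58.1 on log2 FPKM, other scalings and filters, a block by run of sample numbers and the omission of each library were alternatives. Chi-square values per degree of freedom between the libraries of a group were 37.7, 200 and 77.5, so no pair agreed within counting noise, which does not show separate animals.

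Members and lists were chosen with earlier results of these data known. All members are named. Of each other list, up to 4 called genes of the largest change in each direction could be named with values, and Rrm2b, Cdkn1a, Cdk2, Cdk4, Cdk6, Rb1, Dach2 and Hdac9 whatever their values. Other called genes appear by name where their count is stated, chosen after their values were seen. Erythroid markers are not reported here. Promoter sequences are those of RefSeq (GRCm38.p6), and gene positions were copied from the files (mm9), where the base of counting is not stated.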

Additional observations from a re-analysis of the deposited data

How the results depend on the processing

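Of the 18 alternatives, 6 left out 1 library, and no called member changed direction in any of them. For denervated against innervated WT (5 members called higher, 1 lower, 3512 genes in all), the higher members numbered 9 with library totals only, 8 with no filter, 2 where the mean FPKM had to reach 2, and 3 with limma on log2(FPKM + 1). The lower members numbered 0 with library totals only, and 0 when the mean FPKM had to reach 2. Leaving out 1 library gave 1 to 11 higher members, 0 to 3 lower ones and 202 to 5357 genes in all. Library totals only moved the median of all genes from 0 to 0.27 in denervated WT and from 0.01 to 0.33 in DKO-labelled muscle, and the share of higher calls from 50.1% to 74.4% and from 48.4% to 75.1%, which relates every direction above to TMM scaling. For DKO-labelled against denervated WT (5 genes in all), the genes called numbered 10 with DESeq2's size factors in edgeR, 3 with library totals only, 2 with upper-quartile scaling, 10 at a mean of at least 10 fragments, 60 with no filter, 2 where the mean FPKM had to reach 2, 181 with DESeq2 and 0 with the 2 groups alone. With limma they numbered 33, 27 and 33 at pseudocounts of 0.5, 0.1 and 1, and leaving out 1 library gave 0 to 119. DESeq2 called 2 members lower there. For DKO-labelled against innervated WT (6 members higher, 0 lower, 3843 genes in all), the higher members numbered 11 with library totals only, 10 with no filter, 3 where the mean FPKM had to reach 2, and 13 with the 2 groups alone. Ccnd2 was the 1 lower member with DESeq2's size factors, at a mean of at least 10 fragments, with no filter, with DESeq2, with limma at 0.5 and 1, and with the 2 groups alone. Leaving out 1 library gave 1 to 13 higher members, 0 to 1 lower ones and 661 to 5517 genes in all. The cause of these changes was not tested, except that a higher filter leaves fewer genes to test.

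The labels give no replicate numbers, and the pairing tried was that by run of sample numbers. Libraries of 1 run deviated from their group means together, with correlations of 0.228 (innervated and denervated WT), 0.153 (innervated WT and DKO-labelled) and 0.455 (denervated WT and DKO-labelled), but there are only 2 runs and nothing says that they share animals. With the run as a block, 9 members were called higher in denervated against innervated WT (Ccnb2, Ccne1, Mcm3 and Top2a added), and 10 higher (Ccna2, Cdt1, Mcm4 and Top2a added) and 1 lower (Ccnd2) in DKO-labelled against innervated WT.

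Each group has 2 libraries, and the SEs of Top2a, Ccnb2, Birc5 and Ccna2 in denervated against innervated WT ran from 0.77 to 1.07 on the log2 scale.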
